A study of Mus musculus with 4 samples.

Results

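Natural killer (NK) cells and the other innate lymphoid cells are lymphocytes that carry no rearranged antigen receptor. NK cells sense infected or transformed cells through germline-encoded activating and inhibitory receptors, kill by releasing perforin and granzymes, and recruit other leukocytes by secreting chemokines. The helper-type innate lymphoid cells (ILC1, ILC2 and ILC3) act mainly by cytokine secretion and are marked by other transcription factors and receptors. The cells described here were taken from single-cell RNA libraries of mouse pancreatic tumours by a rule on transcripts: at least 2 UMIs (molecule-counting barcodes, so 1 UMI is 1 captured transcript) of Ncr1, Klrb1c, Klre1 and Klrk1 together, and 0 UMIs of the T cell genes Cd3d, Cd3e and Cd3g and of the B cell gene Cd79a. Barcodes entered when they held 500 UMIs or more, 250 genes or more, and no more than 20% of UMIs from mitochondrial genes. The rule took 67 cells of 1753 in the 2 unsorted libraries, and of 6020 cells in all 4 libraries.

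C57BL/6J mice carried orthotopic tumours of 2 KPC lines (mouse pancreatic cancer cells), which were taken on day 13, and the labels name no treatment. Each line, KPC-4545 and KPC-3403, gave 1 enriched library, sorted as negative for CD45 (leukocytes), CD31 (endothelium), EPCAM (epithelium) and TER119 (erythroid cells), and 1 whole library of the unsorted suspension. Every line and preparation is thus 1 library, and the labels do not say how many mice stand behind it. All intervals below are 95% intervals that cover counting error only, and no difference between the lines or between cell classes has a replicate check or a test. The libraries held 47207893 UMIs (enriched KPC-4545), 51450719 (enriched KPC-3403), 5746733 (whole KPC-4545) and 13990046 (whole KPC-3403). The whole KPC-3403 and enriched KPC-4545 libraries shared 139 cell barcodes, against 6 to 11 in the other pairs of libraries. Of the 67 NK cells, 2 of whole KPC-3403 had such a shared barcode. With these 2 left out of the NK count, and all cells kept in the total, the mean NK share of the whole libraries is 3.98% in place of 4.06%.

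The gate was made of 4 surface receptors. Ncr1 (mm10 chromosome 7, 4337724 to 4345164), the gene of NKp46, codes for an activating receptor, Klrb1c (chromosome 6, 128778485 to 128789215) for the NK1.1 antigen, Klrk1 (chromosome 6, 129610323 to 129623864) for the activating receptor NKG2D, and Klre1 (chromosome 6, 129577905 to 129585827) for a lectin-like receptor of the same gene complex. The promoters of 4 genes are shown, a gate gene (Ncr1), the effectors Gzma and Prf1 and the granzyme Gzmc, whose level in each line is given below, because RUNX factors, which bind TGTGGT, act in lymphocyte gene control. The sequences are from RefSeq (GRCm38.p6), 250 bases before to 50 after a start, read 5′ to 3′ on the gene's strand, with the motif on either strand (TGTGGT or ACCACA) in capitals.
Ncr1 (chr7:4337465-4337764, + strand): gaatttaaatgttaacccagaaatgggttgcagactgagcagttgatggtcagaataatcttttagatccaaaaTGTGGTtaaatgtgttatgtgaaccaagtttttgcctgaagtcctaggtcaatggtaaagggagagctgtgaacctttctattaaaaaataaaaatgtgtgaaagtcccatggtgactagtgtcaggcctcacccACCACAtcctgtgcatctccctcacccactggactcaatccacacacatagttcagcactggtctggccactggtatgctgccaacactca
Gzma (chr13:113100932-113101231, - strand): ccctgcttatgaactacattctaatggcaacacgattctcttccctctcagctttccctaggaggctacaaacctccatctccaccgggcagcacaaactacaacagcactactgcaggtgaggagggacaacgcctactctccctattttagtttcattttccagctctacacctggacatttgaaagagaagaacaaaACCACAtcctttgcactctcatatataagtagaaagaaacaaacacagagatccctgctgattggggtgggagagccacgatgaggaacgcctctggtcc
Prf1 (chr10:61297586-61297885, + strand): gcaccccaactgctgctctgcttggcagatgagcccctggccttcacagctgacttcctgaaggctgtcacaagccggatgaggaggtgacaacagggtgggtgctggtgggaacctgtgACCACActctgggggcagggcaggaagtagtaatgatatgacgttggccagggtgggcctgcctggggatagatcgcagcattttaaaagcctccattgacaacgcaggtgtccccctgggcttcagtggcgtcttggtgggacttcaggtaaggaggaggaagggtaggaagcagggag
Gzmc (chr14:56234608-56234907, - strand): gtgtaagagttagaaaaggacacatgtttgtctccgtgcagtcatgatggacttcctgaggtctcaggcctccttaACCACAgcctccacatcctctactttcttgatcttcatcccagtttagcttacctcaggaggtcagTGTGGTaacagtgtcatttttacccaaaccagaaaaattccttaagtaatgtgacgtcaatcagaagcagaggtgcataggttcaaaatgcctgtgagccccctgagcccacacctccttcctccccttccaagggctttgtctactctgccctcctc
The letters TGTGGT on either strand stood in 16.8% of 32851 RefSeq promoters of the same length. They stood in promoters of all 4 gate genes (5 of 6 promoters), of 15 of the 22 listed cytotoxic effector genes with a promoter in the table (15 of 25 promoters, 60%), in 4 of 20 promoters of listed cytokines and chemokines, and in 3 of 19 of interferon response genes. Of 4 motifs counted, the other 3 stood in fewer gate promoters. In the gate promoters, the cytotoxic effector promoters and all RefSeq promoters, the ETS letters AGGAAG stood in 2 of 6, 16 of 25 (64%) and 35.4%, the T-box letters GGTGTGA in 0 of 6, 5 of 25 (20%) and 3.98%, and the AP-1 letters TGANTCA in 1 of 6, 2 of 25 (8%) and 7.81%. Neighbouring granzyme genes are copies of one another and their promoters are not independent, and a match describes letters, not binding. Ncr1 enters the gate promoters with overlapping sequences, from 4337465 and from 4337474, that hold the same TGTGGT matches and are not independent either.

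NK cells were found in both whole libraries and in neither enriched library. They were 25 of 536 cells in whole KPC-4545 (4.66%, exact Clopper-Pearson interval 3.04 to 6.81%) and 42 of 1217 in whole KPC-3403 (3.45%, 2.50 to 4.64%). These counts include 8 members with MHC class II genes, described below, which go against the name. Without them the shares were 22 of 536 (4.10%, 2.59 to 6.15%) and 37 of 1217 (3.04%, 2.15 to 4.17%), with a mean of 3.57%. The enriched libraries had 0 of 1692 cells (KPC-4545), with an interval up to 0.218%, and 0 of 2575 cells (KPC-3403), with an interval up to 0.143%. The sort took CD45-negative cells, and NK cells carry CD45, so the sort gate can set this difference, and it is given as a description. The mean share was 0% in enriched and 4.06% ± 0.858 (SD, n = 2) in whole libraries, a difference of -4.06 percentage points. Between the lines the share was 1.21 percentage points higher in KPC-4545, with overlapping intervals. Relative to T cells (at least 2 UMIs of Cd3d, Cd3e and Cd3g together, under 2 UMIs of the gate and 0 of Cd79a) the numbers were 23.4 NK cells per 100 T cells in KPC-4545 and 25.9 in KPC-3403. The members with class II genes are included in both ratios.

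Most members carried several of the gate's genes. Klrk1 was found in 23 of 25 (KPC-4545) and 37 of 42 cells (KPC-3403), Klre1 in 20 and 31, Ncr1 in 18 and 24, and Klrb1c in 16 and 30. All 4 were found in 11 and 14 cells, and Klrk1 alone in 3 and 5. The gate's summed UMIs had a median of 6 (range 2 to 33) in KPC-4545 and 7 (2 to 21) in KPC-3403. Just inside the threshold, with 2 UMIs, lay 2 and 5 cells. Just outside, with 1 UMI and none of the excluded genes, lay 3 and 12, of which 3 and 11 had Cd74, the invariant chain of antigen-presenting cells, and 0 and 1 had the granule gene Nkg7. The exclusion of CD3 genes removed a further 31 cells (KPC-4545) and 49 cells (KPC-3403) with at least 2 UMIs of the gate. Median depth was 4444 UMIs per NK cell in KPC-4545 and 3812 in KPC-3403, against 3799 and 4054 in T cells. The values just inside and outside the threshold, like the levels of the gate's genes, follow from the rule and are given as a description.

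The label was checked against markers. Of 7 markers of conventional NK cells (Eomes, Itga2, Itgam, Klra8, S1pr5, Prf1 and Gzmb), all 7 were detected in both libraries, with a summed level of 2132 UMIs per 1000000 UMIs of the class (CPM) in KPC-4545 and 1950 CPM in KPC-3403, against 598 and 167 CPM in T cells. The list of 8 dendritic cell markers stood higher still over all 67 members, at 4744 CPM in KPC-4545 (663 UMIs) and 2151 UMIs in KPC-3403, against 1033 CPM and 152 CPM in T cells, and 655 and 2133 of these UMIs lay in 8 members described in the next paragraph. The ILC3 markers Il23r, Il17a, Il22 and Il1r1 were at 0 in both libraries. Of the ILC2 markers, Il1rl1, Il5 and Il13 were at 0 in both, Areg had 0 and 1 UMI, and Gata3, which NK and T cells also use, had 3 and 8. The ILC1 markers Itga1, Tnfsf10, Cxcr6, Cd200r1 and Il7r summed to 129 and 101 CPM, against 646 and 498 CPM in T cells. A longer list of 12 ILC1 genes, which holds these 5, was not lower in KPC-4545. It summed to 1717 and 1000 CPM, against 1658 and 1304 CPM in T cells. Of 10 of its genes compared, 1 was over 2-fold higher than in T cells in both libraries and 4 lower. By these markers the name NK cells goes with the other 59 members as a sum, with conventional NK markers at 2981 and 2863 CPM. The 8 go against it, with the same markers at 97.2 and 15.7 CPM. The name was not checked for each cell. Of the 59, 35 had a UMI of Eomes, 5 had Itga1 without Eomes, and 3 had Klrk1 as their only gate gene. The 1 such cell of KPC-4545 had no UMI of Nkg7, Gzma, Prf1, Eomes, Il2rb, Fcer1g or Tyrobp. Where NK cells are counted or summed below with no other remark, the name stands for all 67 cells that the rule took. T cell markers were at 0 for Cd4, Cd8a, Cd8b1, Cd5 and Cd6 as well as for the excluded CD3 genes. The remaining T list was 43 and 68 UMIs, in 3 and 4 of the 12 markers. Of the genes of the gamma-delta T cell receptor, Trdc, Tcrg-C4 and Trdv4 were detected, with 21 UMIs of the list in each library (150 and 106 CPM), against 42.7 and 59.5 CPM in T cells. At least 2 UMIs of the macrophage and dendritic cell lists together were in 14 of 25 and 16 of 42 members, against 17 of 107 and 24 of 162 T cells. The macrophage list summed to 715 and 216 CPM over all members, against 133 and 95.4 CPM in T cells. It was at 314 and 244 CPM in the 59, where 30 of its 31 UMIs in KPC-4545 and 31 of 33 in KPC-3403 were of Ccr2, a chemokine receptor that NK cells also use. The part of these transcripts in the results was not tested. All 6 mast cell markers were at 0, fibroblast markers had 0 and 2 UMIs, and neutrophil markers 2 and 2 UMIs. Haemoglobin and other erythroid transcripts summed to 215 and 573 CPM in NK cells, against 308 and 6908 CPM in T cells, and at least 2 such UMIs were in 10 of 25 and 35 of 42 NK cells.

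A small set of members carried genes of antigen-presenting cells and had no UMI of Gzma, Gzmb, Gzmc, Nkg7 or Prf1. In 8 of the 67 cells, 3 of KPC-4545 and 5 of KPC-3403, the MHC class II genes H2-Aa and H2-Ab1 summed to between 5 and 531 UMIs, while none of the other 59 had more than 1. Their UMIs were 44, 91 and 245 in KPC-4545, and 5, 20, 245, 324 and 531 in KPC-3403. All 8 had Klrk1 (5 of them as their only gate gene), and none had a UMI of Nkg7, Gzma, Prf1, Eomes, Xcl1 or the interleukin-2 receptor chain gene Il2rb. All 8 had Cd74 and Cst3, 6 had the dendritic cell receptor gene Flt3, 2 had Clec9a, and 5 had the inflammatory cytokine gene Il1b. The dendritic cell list of 8 markers summed to 15920 CPM (KPC-4545) and 33458 CPM (KPC-3403) in these cells, against 81.1 and 133 CPM in the other members. Of its 655 UMIs in KPC-4545, 130 were of H2-Ab1 and 496 of Cd74, and of its 2133 in KPC-3403, 441 and 1644. H2-Ab1 was used to set these cells apart, so the contrast follows in large part from the split. The list is not particular to dendritic cells, as B cells of the same libraries had 19500 and 14778 CPM of it. Their median depth was 13106 UMIs in KPC-4545 and 11999 in KPC-3403, so that they hold 29.4% and 32.0% of all UMIs of the members. This split was chosen after the values were seen. Leaving the 8 cells out raises the CPM of a gene they lack 1.42-fold and 1.47-fold, and the comparisons with T cells and between the lines are given for the 59 others as well. Levels and shares of single genes are over all 67 members unless stated.

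**Figure D1:**
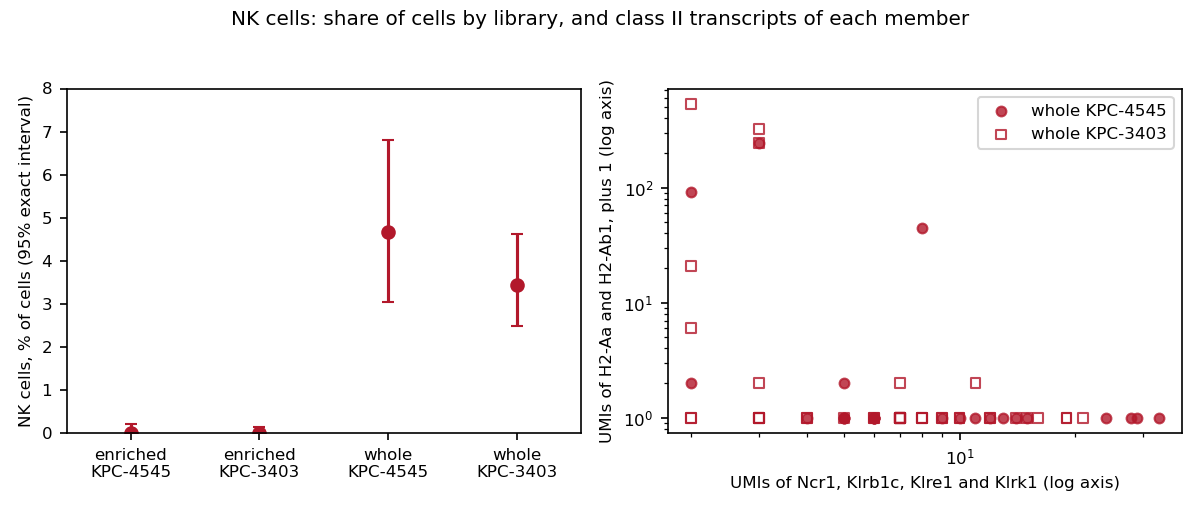
Left, share of NK cells in each library (%, points) with exact 95% intervals; the enriched libraries are at 0 and the whole libraries at 4.66% (KPC-4545) and 3.45% (KPC-3403). Right, each member's UMIs of the 4 gate genes against its class II UMIs plus 1, both on log axes; 8 cells stand at 5 class II UMIs or more, the other 59 at 0 or 1.

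Most of the other members carried genes of cytotoxic granules, with Nkg7 in 57 and Gzma in 49 of the 59. Gzma, a granule protease that is also one of the genes the class is named by but not a gene of the rule, had 465 UMIs in 16 of 25 cells (3327 CPM, exact Poisson interval 3031 to 3643) in KPC-4545 and 1209 UMIs in 33 of 42 cells (6077 CPM, 5740 to 6430) in KPC-3403. Nkg7, a granule membrane protein that takes part in granule release, had 296 UMIs in 20 cells (2118 CPM) and 460 UMIs in 37 cells (2312 CPM). Prf1, the pore-forming perforin, had 48 UMIs in 11 cells (343 CPM) and 85 UMIs in 28 cells (427 CPM). Gzmb, the caspase-activating granzyme, had 158 UMIs in 13 cells (1130 CPM) and 159 UMIs in 20 cells (799 CPM). Among the 59, Prf1 was at 487 and 629 CPM and Gzmb at 1602 and 1176 CPM. In B cells of the same libraries (at least 2 UMIs of Cd79a, Cd79b and Ms4a1, 0 of the CD3 genes and under 2 of the gate), which should lack these genes, Gzma had a UMI in 0 of 173 and 1 of 128 cells and Nkg7 in 2 and 1, at median depths of 3183 and 3076 UMIs. Gzmd, Gzme, Gzmf and Gzmg were at 0 UMIs in both libraries. Serpinb9 and Serpinb6b, inhibitors that protect a cell from granule proteases, were at 394 and 407 CPM and at 501 and 613 CPM. Granzyme genes are close copies of one another, so the division of reads among them is uncertain.

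Gzma was found in 49 of the 67 members, all of them among the 59, so other genes often shared a cell with it. Of 39 cells with Prf1, 38 also had Gzma, and of 33 with Gzmb, 32 had Gzma. Of 55 cells with Ccl5, 48 had Gzma. Gzmc was found in 6 cells, of which 3 had no Gzma and 3 had the ILC1 and tissue-residence integrin gene Itga1. Xcl1 was found in 37 cells, 7 of them without Gzma. These counts are a description, since a cell with no UMI may still express the gene.

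**Figure D2:**
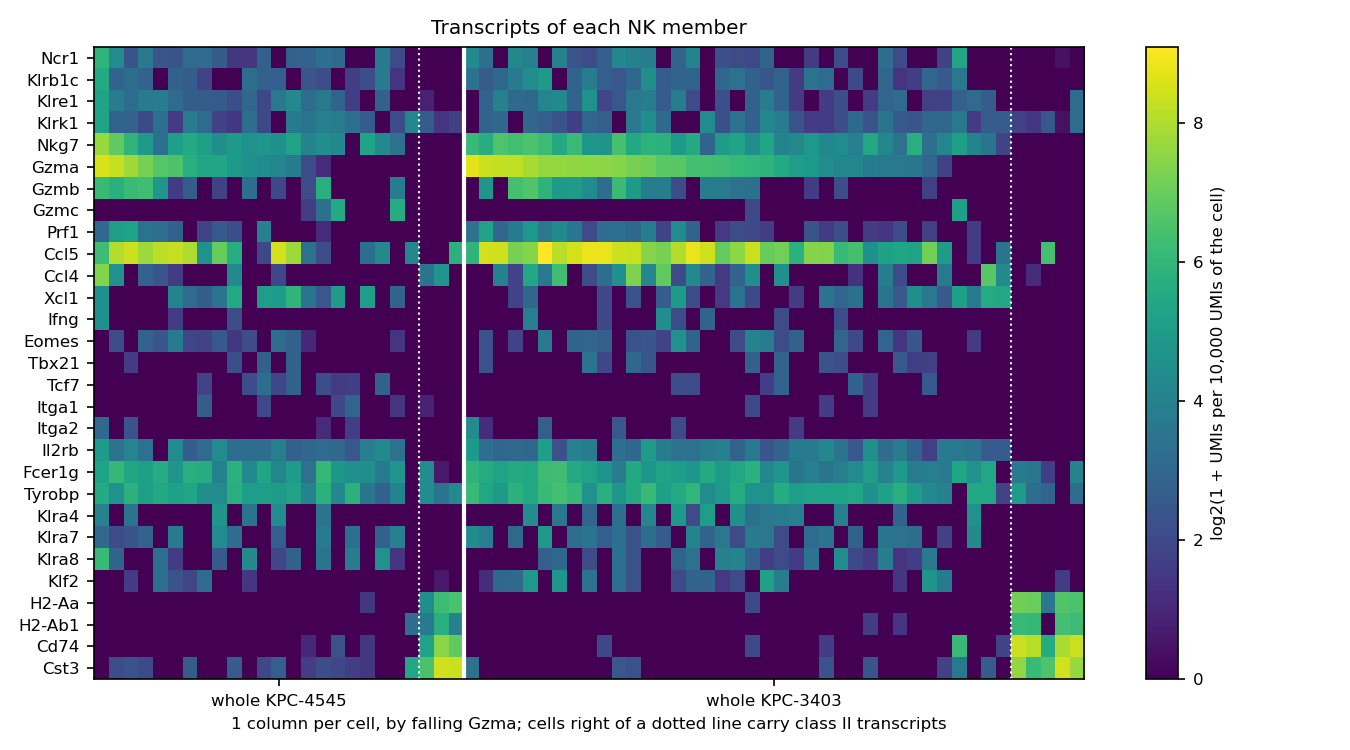
Each column is 1 of the 67 NK cells and each row a gene; colour is log2(1 + UMIs per 10000 UMIs of the cell). Cells run by falling Gzma within each line, KPC-4545 (25 cells) left of KPC-3403 (42 cells), and the 3 and 5 cells right of the dotted lines carry class II genes and no Gzma, Nkg7 or Prf1.

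Among secreted products, the chemokine Ccl5 was detected in 55 of 67 members and the cytokine Ifng in few. Ccl5, which draws T cells and myeloid cells, had 955 UMIs in 19 cells (6833 CPM) in KPC-4545 and 2362 UMIs in 36 cells (11873 CPM) in KPC-3403. Ccl4, of the same function, had 109 UMIs in 9 cells (780 CPM) and 202 UMIs in 25 cells (1015 CPM). In KPC-4545, 64 of the 109 UMIs lay in 2 class II cells, without which Ccl4 was at 456 CPM in KPC-4545 and 1479 CPM in KPC-3403. Its near neighbour Ccl3 had 15 and 37 UMIs, and reads of related chemokine genes can be shared. Xcl1, the ligand of the cross-presenting dendritic cell receptor XCR1, had 148 UMIs in 14 cells (1059 CPM) and 98 UMIs in 23 cells (493 CPM). Ifng was sparse, with 6 UMIs in 3 cells and 15 UMIs in 7 cells. Tnf had 0 and 2 UMIs, Csf2, Il10, Il22 and Il17a were at 0, and Ccl1 had 20 UMIs, all in 1 cell of KPC-3403. Ccl5 was found in 1 of 173 and 2 of 128 B cells, which should lack it.

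Receptors of the Ly49 family, their adaptors and the factor Eomes were detected in both libraries. Tyrobp and Fcer1g, adaptors that carry the signal of activating receptors, were at 2697 and 2511 CPM in KPC-4545 and at 2916 and 2146 CPM in KPC-3403. The Klra genes code for Ly49 receptors, of which most inhibit NK cells on contact with MHC class I while Klra4 and Klra8 code for activating members that use Tyrobp. Klra8 had 49 UMIs in 12 cells and 59 UMIs in 21 cells, Klra4 40 in 6 and 75 in 16, and Klra7 52 in 12 and 99 in 26. Klra genes are close copies of one another, so the division of reads among them is uncertain. Eomes, a T-box factor that keeps conventional NK cells in their fate, had 23 UMIs in 13 cells and 53 UMIs in 22 cells. Tbx21, the T-box factor of type 1 lymphocytes, had 6 UMIs in 4 cells and 22 UMIs in 12 cells, and 12 of these 16 cells also had Eomes. Irf8, an interferon regulatory factor used by NK and dendritic cells, had 136 and 229 UMIs (973 and 1151 CPM), of which 107 and 184 lay outside the class II cells. Bcl11b, a factor of T cells and ILC2, and Zfp683, a factor of tissue-resident lymphocytes, were at 0. Il2rb, the chain that NK cells use for interleukins 2 and 15, was at 723 and 729 CPM in 20 and 36 cells.

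Shares of cells with a UMI depend on depth, so they are given as found and as the exact expected share when each cell is thinned to 1000 UMIs. No NK cell had fewer, and 2 and 7 T cells and 1 and 2 B cells were left out of the thinned shares. Eomes was found in 52% of NK cells of KPC-4545 (13 of 25, interval 31.3 to 72.2%) and in 52.4% of KPC-3403 (22 of 42, 36.4 to 68.0%), and in 20.1% and 24.9% after thinning. Gzma was found in 64% (42.5 to 82.0%) and 78.6% (63.2 to 89.7%), and in 55.5% and 72.0% after thinning. Tcf7, an early-stage and memory-associated factor, was found in 36% (18.0 to 57.5%) and 16.7% (6.97 to 31.4%), and in 13.8% and 6.04% after thinning, where T cells had 16.6% and 17.9%. Itga1 was found in 24% (9.36 to 45.1%) and 7.14% of NK cells, and in 7.16% and 1.70% after thinning, where T cells had 3.66% and 2.11%. The intervals of the 2 lines overlap for all 4 genes. Among the 59 the shares as found were 59.1% and 59.5% for Eomes, 72.7% and 89.2% for Gzma, 40.9% and 18.9% for Tcf7, and 22.7% and 8.11% for Itga1. Eomes and Tcf7 had a UMI in 0 of 173 and 0 of 128 B cells.

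**Figure D3:**
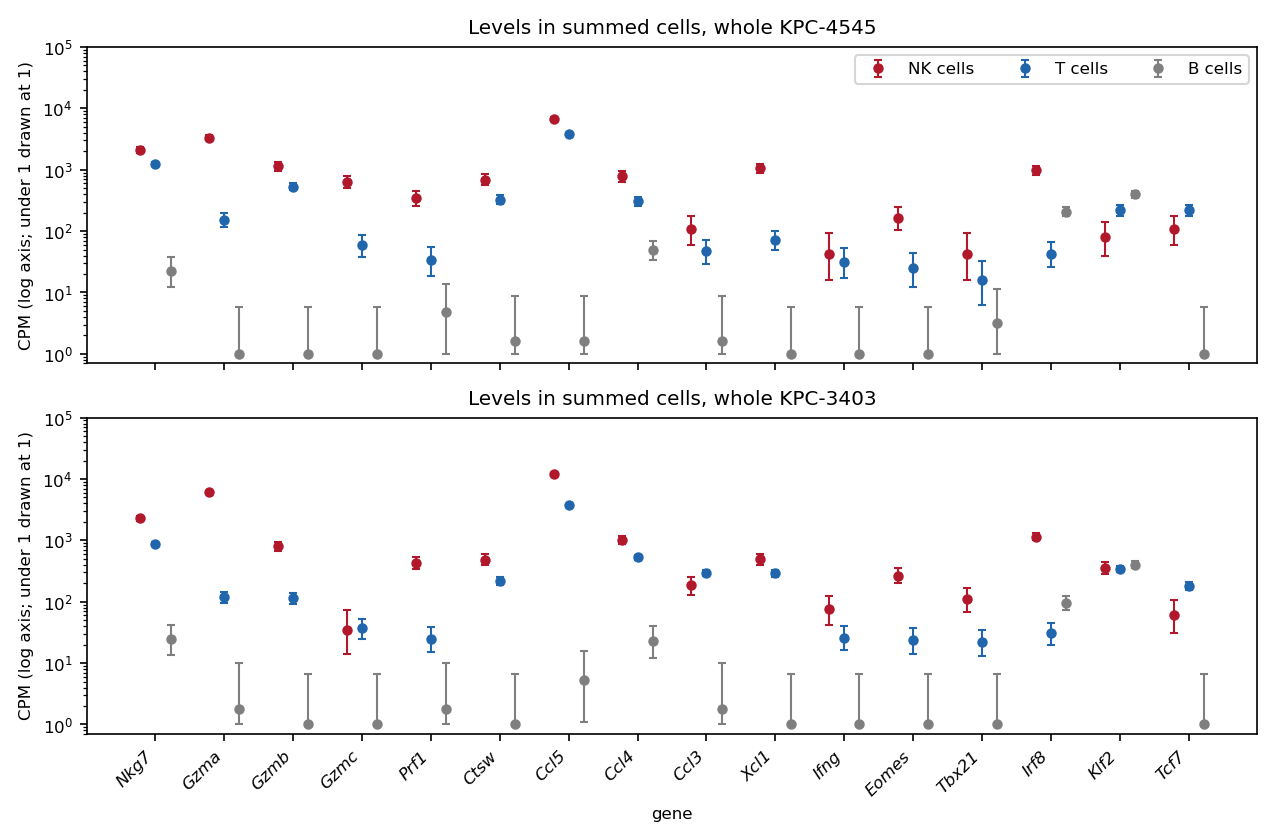
CPM (log axis, values under 1 drawn at 1) of genes of 3 roles in the summed NK, T and B cells of each whole library, with exact Poisson 95% intervals. Gzma, Prf1, Irf8 and Eomes lie above T and B cells in both libraries, while Klf2 and Tcf7 do not.

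Compared with T cells of the same library, NK cells were higher in receptors, adaptors and granule proteins and lower in T cell and checkpoint genes. Over all genes with at least 10 UMIs over both sums in each library and outside the rule, 254 of 5666 were more than 2-fold higher in NK cells in both libraries (4.48% of the genes compared) and 271 more than 2-fold lower (4.78%). Without the class II cells the counts were 234 of 5428 (4.31%) and 271 (4.99%). The NK cells were chosen by their transcripts, so the comparison is a description with no test, and the 8 genes of the rule were left out of it. The T cells were limited to under 2 gate UMIs. The 31 and 49 cells with CD3 genes and at least 2 gate UMIs are thus in neither class. How far leaving them out widens the differences was not tested. Some leading genes over all 67 (Cst3, Naaa and H2-DMb1 among them) were not among the leading 15 without the class II cells, so the 59 others are given here. Klra8 was at 497 and 436 CPM in NK cells and at 0 UMIs in T cells of both libraries. With T cells set at a floor of 3 UMIs per library it was 73.6-fold and 117-fold higher. The lower bounds of its intervals were 57.6-fold and 92.5-fold. Gzma was at 4715 and 8943 CPM in NK cells, against 153 and 118 CPM in T cells (log2 4.94, interval 4.58 to 5.33, and 6.24, 5.94 to 6.56). Fcer1g (log2 4.94 and 6.52), Tyrobp (4.75 and 6.89), Irf8 (4.63 and 5.43) and Prf1 (3.82 and 4.64) followed. Klra4, Klra9, Klra7, Klrb1b, Klrb1a, Klri2, Klra3, Klra1 and Aoah, an enzyme that inactivates endotoxin, complete the 15 leading genes.

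By role, the listed cytotoxic effectors had 9 of 18 compared genes over 2-fold higher and 0 lower among the 59 cells (6 and 0 among all 67). Their median log2 difference was 1.39 in KPC-4545 and 1.12 in KPC-3403, against 0.04 and 0.13 over all genes compared. Nkg7 (log2 1.28 and 1.98), Gzmb (1.59 and 3.35), Serpinb9 (2.69 and 4.18) and Serpinb6b (2.67 and 3.43) are examples. The activating receptors and adaptors had 9 of 18 higher and 1 lower, and the inhibitory receptor list 9 of 16 higher and 3 lower, the 3 being the checkpoint genes Lag3, Pdcd1 and Ctla4. The higher ones of that list include the activating Klra4 and Klra8. Cytokines and chemokines had 4 of 10 higher (Ifng, Xcl1, Ccl5 and Tgfb1) and 1 lower (Areg) among the 59, and 0 higher among all 67. Ifng was a marginal case in KPC-4545, with 6 UMIs in 3 cells (60.8 CPM), against 14 UMIs (31.5 CPM) in T cells. These levels are short of 2-fold, which Ifng passed there only with the fraction of a UMI added to each sum. In KPC-3403 Ifng was at 111 CPM (15 UMIs), against 26.0 CPM in T cells. Ccl5 was at 9176 and 17206 CPM in the 59, against 3852 and 3700 CPM in T cells, and Xcl1 at 1501 and 725 CPM, against 72.0 and 291 CPM. Of 27 transcription factors, Eomes, Tbx21, Zeb2 and Irf8 were higher, and Rora, Ikzf2, Bcl11b and Lef1 lower. Of 10 proliferation genes compared, 0 were higher and 5 lower (Birc5, Ube2c, Ccnb2, Stmn1 and Pclaf), and the summed level of that list was 476 and 762 CPM in the 59, against 1120 and 1367 CPM in T cells. Of 11 exhaustion and activation genes, 0 were higher and 5 lower, among them Tnfrsf4, a costimulatory receptor that was at 0 UMIs in NK cells, against 506 and 412 CPM in T cells. S100a8 and S100a9, neutrophil genes, led the lower genes. The neutrophil list summed to 14.3 and 10.1 CPM in all NK cells, against 2659 and 4069 CPM in T cells, where 2 and 3 cells held at least 2 UMIs of it. Without T cells that held 2 UMIs of any other lineage, 89 genes were lower over all 67 members in place of 271. Most of the T cells removed were not those with neutrophil genes, as 34 of 107 and 131 of 162 T cells held at least 2 erythroid UMIs. The smaller T cell sums can also leave fewer genes with 10 UMIs. The part of each lineage in this fall was not tested.

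**Figure D4:**
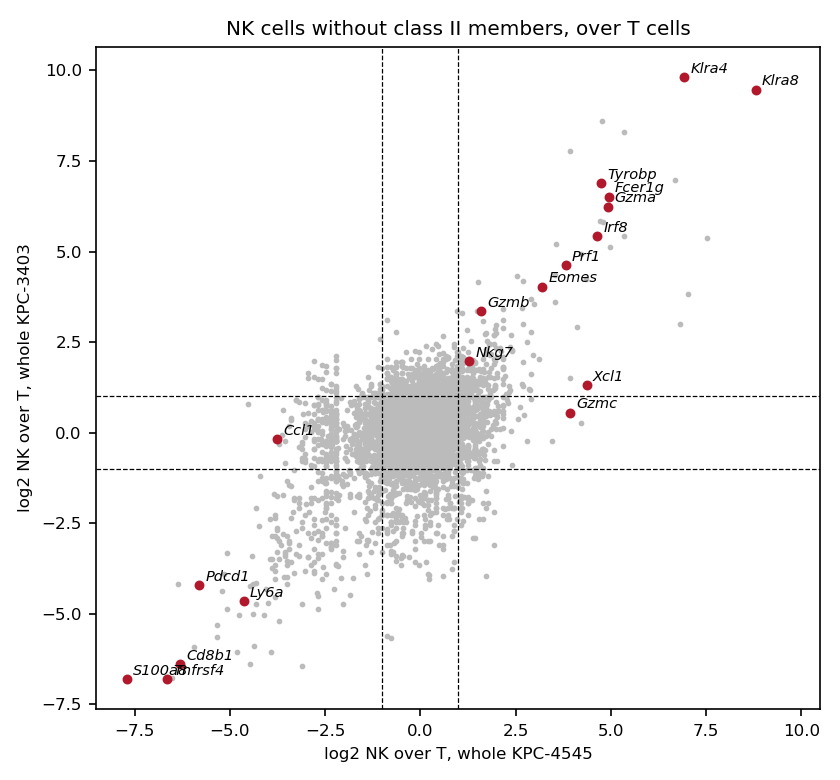
Log2 NK over T in whole KPC-4545 (x axis) and whole KPC-3403 (y axis), for the 59 NK cells without class II genes; each grey point is a gene with at least 10 UMIs over both sums in each library, red points are named, 0.5 UMI is added to each sum, and dashed lines mark 2-fold. Klra8, Gzma, Fcer1g and Tyrobp lie high in both and S100a8, Tnfrsf4 and Cd8b1 low in both.

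Against B cells, over all 67 members, 546 of 5601 genes were more than 2-fold higher in NK cells in both libraries (9.75%) and 330 lower (5.89%). Ccl5 was at 6833 and 11873 CPM, against 1.59 and 5.34 CPM in B cells. Cd7, an immunoglobulin-family receptor of NK and T cells, was at 458 and 452 CPM, against 0 UMIs in B cells. Without the class II cells Ccl5 was at 9176 and 17206 CPM and Cd7 at 517 and 658 CPM. The lower genes included Ly6d and Ebf1, B cell genes that were at 0 UMIs in NK cells. In the 59 the class II genes H2-Aa, Cd74 and H2-Eb1 led the lower genes, H2-Aa with 1 UMI in each line against 3895 and 2443 UMIs in B cells. H2-Aa was used to set the 8 cells apart, so its place follows from the split.

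Between the lines, 342 of 4116 genes were more than 2-fold higher in KPC-4545 NK cells (8.31%) and 369 lower (8.97%), with at least 10 UMIs over both sums. Without the class II cells the counts were 208 (6.77%) and 320 (10.4%) of 3074. Each line is 1 library, with 25 and 42 cells, and some values rest on a single cell. Of 24 listed interferon response genes 12 had enough UMIs to be compared, and 9 of these were over 2-fold higher in KPC-4545 and 0 lower, with a median log2 of 2.47, against -0.01 over all genes. Without the class II cells it was 7 of 10 and 0 lower, with a median of 1.80, against -0.08. The minimum is set on both sums together, so a gene with few UMIs in a line enters only through the other line. Among the 59, Ifi27l2a entered in this way, with 21 UMIs in KPC-4545 and 1 in KPC-3403. Zbp1 (13 and 5 UMIs), Xaf1 (11 and 3) and Isg15 (9 and 3) also entered mostly through KPC-4545. The counts and medians thus describe the compared genes only and are no test of the list. Listed genes under the minimum were not tested. The same limit applies to the other gene lists compared between the lines. Bst2, which tethers budding virus, was at 375 CPM in KPC-4545 and 74.0 CPM in KPC-3403 (37 and 10 UMIs, in 9 and 8 cells; log2 2.29, interval 1.31 to 3.52), with 16 of the 37 UMIs in 1 cell. Zbp1, a nucleic acid sensor, was at 132 and 37.0 CPM (13 and 5 UMIs; log2 1.75, 0.25 to 3.67), with 8 of the 13 in 1 cell. Xaf1 was at 112 and 22.2 CPM (11 and 3 UMIs; log2 2.17, 0.41 to 4.81), with 6 of the 11 in 1 cell. Irf1, an interferon-induced factor, was at log2 -0.79 (9 and 22 UMIs). Ifi27l2a is an example of a value set by 1 cell, with 21 UMIs in 1 cell of KPC-4545, against 1 UMI in KPC-3403. The list summed to 3275 CPM in KPC-4545 and 1287 CPM in KPC-3403 in the 59 NK cells, against 5516 and 3824 CPM in T cells of the same libraries. The T cell log2 difference was 0.27 for Bst2, 0.52 for Zbp1 and 0.42 for Xaf1, in the same direction.

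Effector and quiescence genes differed past 2-fold in single cases. Gzmc, a granzyme of strongly activated killer cells, had 89 UMIs in 4 cells of KPC-4545, 49 of them in 1 cell, and 7 UMIs in 2 cells of KPC-3403 (902 and 51.8 CPM without class II cells; log2 4.03, interval 3.02 to 5.48). Xcl1 was higher in KPC-4545 (log2 1.05, 0.67 to 1.43) while Gzma differed by -0.92 (-1.08 to -0.77), short of 2-fold. Ccl4 was lower without the class II cells, at 456 and 1479 CPM (log2 -1.68, -2.20 to -1.22), while over all 67 it differed by -0.38, with 64 of its 109 UMIs in KPC-4545 in 2 class II cells. Klf2, a factor of quiescent recirculating lymphocytes, was at 101 and 481 CPM (log2 -2.19, -3.37 to -1.28), from 6 of 22 and 18 of 37 cells, and was -0.63 in T cells. Of 16 immediate early genes, 6 were over 2-fold lower in KPC-4545 and 1 higher, among them Nfkbia (log2 -1.29) and Zfp36 (-1.60). Of 9 heat shock genes, 3 were lower and 0 higher, while over all 67 cells it was 6 of 10. Hspa1a, a heat shock chaperone, rests on 2 cells of each line among the 59. Mgl2, Ccl17 and Clec4n, higher in KPC-3403 over all 67, and Lyz2, higher in KPC-4545 over all 67, are myeloid and dendritic genes that had under 10 UMIs without the class II cells. Line, library and animal cannot be told apart here.

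**Figure D5:**
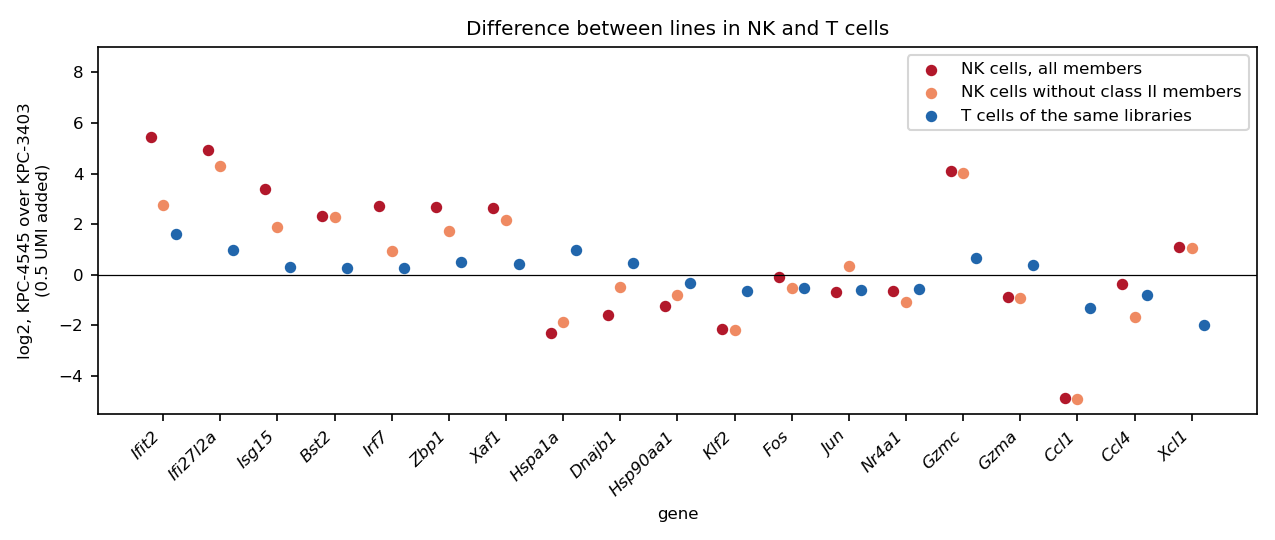
Log2 difference, KPC-4545 over KPC-3403 with 0.5 UMI added, for interferon, heat shock, immediate early and effector genes in all 67 NK cells, in the 59 without class II genes and in T cells of the same libraries. The interferon genes drawn at the left, some of the listed ones, lie above 0 in NK cells, at 2.29 for Bst2 and 2.17 for Xaf1 without class II cells, and Klf2 lies below 0.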

How the data were processed

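The authors deposited raw UMI counts per gene for every droplet barcode of 4 10x 5' libraries, and the deposited counts are not normalized. The submitters' processing notes name Cell Ranger 6.1.1 and mm10, and Cell Ranger 4 is named per the file headers. Filters and the gate are given above, and doublets were kept in the values reported. UMIs were summed per class and library as CPM with exact Poisson intervals, and shares have exact Clopper-Pearson intervals (scipy 1.17.1). Log2 ratios add 0.5 UMIs and have exact binomial counting intervals, and a gene was counted when past 2-fold with at least 10 UMIs over both sums. The ratio, interval and thinning code was tested on simulated data. Genes named within a list are those with the highest mean CPM, and defining markers at 0. Between classes (15 per direction) and lines (10 per direction), those with the counting bound nearest to no difference farthest from 0 were named. Other genes in the text illustrate a list and were chosen after their values were seen. The members and lists were chosen with earlier results of these data known. Promoters are from RefSeq (GRCm38.p6) and gene positions from GENCODE on mm10. Some genes of the lists are counted but not reported by name here.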

Additional observations from a re-analysis of the deposited data

Results flagged for a closer look

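For 4 genes the difference between NK and T cells lay on opposite sides of 0 in the 2 lines, and the difference between the lines was not tested. Bst2 was at log2 1.12 (NK over T) in KPC-4545 and -0.93 in KPC-3403. Ccl3 was at 1.20 in KPC-4545 and -0.65 in KPC-3403. Dnajb1, a heat shock co-chaperone, was at -1.02 in KPC-4545 and 1.04 in KPC-3403. Hspa1a was at -1.07 in KPC-4545 and 2.20 in KPC-3403. Without the class II cells the values were 1.09 and -0.93 for Bst2, 1.60 and -0.09 for Ccl3, -0.52 and 0.43 for Dnajb1, and -1.65 and 1.20 for Hspa1a. Hspa1a rests on 9 UMIs in 3 NK cells of KPC-4545 and 66 UMIs in 4 NK cells of KPC-3403, 37 of them in 1 cell.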

How the results depend on the processing

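Over all alternatives, 108 values of shares and gene counts were kept, 38 moved further and 0 changed direction. Kept means within the SD between libraries for shares, and within 1.5 times for gene counts. For the share difference between lines it means within counting error, and for enriched against whole libraries the same sign. Only these differences could change direction, and the enriched shares were too low for the latter to do so. With 1 of the 2 libraries left out, a mean share or level always stays within the SD. A minimum of 1000 UMIs and 500 genes, and the removal of doublets called by Scrublet, each kept all 25 and 42 NK cells. Values over NK cells alone could thus not move there, and they count among those kept. Removing cells with 2 UMIs of another lineage left 3 NK cells in each whole library, and gave a mean share of 0.403%, 35 genes higher and 24 lower in KPC-4545, 86 higher and 47 lower than T cells cleaned in the same way, and shares of 100% for Eomes and Gzma and 50% for Tcf7. A minimum of 20 UMIs gave 113 genes higher and 125 lower between the lines, and 127 higher and 155 lower than T cells; a minimum of 5 gave 725, 878, 456 and 434. At least 1 UMI of the gate gave 653 genes lower in KPC-4545, and shares of 43.6% for Eomes and 59.1% for Gzma. Without the class II cells, chosen after seeing the data, 208 genes were higher in KPC-4545 and Eomes was in 59.3%. Without T cells of another lineage, also chosen afterwards, 89 genes were lower than in T cells. The Eomes share, 52.2% as the mean of 2 libraries with an SD under 1 point, was 58.0% with 3 gate UMIs, 51.5% with 1 T or B cell UMI allowed, 53.5% with 10% mitochondrial UMIs and 53.5% without barcodes of other libraries. Calling a cell from 2 UMIs gave 26.7% for Eomes and 11.6% for Tcf7. Thinning to 1000 UMIs gave 22.5% for Eomes and 9.93% for Tcf7, and thinning to 500 gave 12.6% for Eomes, 57.0% for Gzma, 2.33% for Itga1 and 5.19% for Tcf7. With 1 library left out, where a gene need pass in only the other, 731 to 880 genes were higher and 862 to 1184 lower than in T cells. Of the levels of named genes under the alternatives, 67 stayed within the spread and 21 did not. Paired by tumour line (a replicate block chosen after seeing the data), the difference in share between enriched and whole libraries was -4.06 points, from -4.66 and -3.45 in the 2 pairs. The sort and the rule set it, so no test is read from it. Depth limits the rare transcripts most.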

Other observations

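Of 4 other gene groups, 1 had no gene past 2-fold between NK and T cells in both libraries, where 4.48% of all genes were higher and 4.78% lower. Values are over all 67 members unless stated. The MHC class I and antigen processing list summed to 9244 CPM in KPC-4545 and 9023 CPM in KPC-3403 NK cells, against 9496 and 8459 CPM in T cells, with 0 of 9 genes past 2-fold. The hypoxia and glycolysis list summed to 2919 and 4248 CPM, against 4733 and 4905 CPM in T cells, with 2 of 12 genes higher and 2 lower, and 1 higher (Vegfa) and 1 lower (Hif1a) among the 59 without class II genes. Of 16 cytokine receptors, Il12rb2 and Il18rap, receptor chains for the NK-activating interleukins, were higher in NK cells, and Il2ra, Il21r, Il7r and Il1rl1 lower, and the same was so among the 59, where Il2rb was higher as well. Of 19 trafficking genes, those higher included Ccr2 and Itgam, and those lower were Cxcr3, Cxcr6, S1pr1 and Cd69. Among the 59, Cd69 was short of 2-fold in KPC-4545 (15 UMIs, 152 CPM, against 272 CPM in T cells), and Ccr7 was lower in its place. Ccr2, a receptor that guides leukocytes out of the bone marrow, was at 308 and 156 CPM in NK cells, against 69.7 and 48.3 CPM in T cells, and Cxcr6, a receptor of tissue-resident lymphocytes, at 7.16 and 40.2 CPM, against 216 and 201 CPM in T cells.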
